A study of Mus musculus with 6 samples.

Results

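The subunits of the mitochondrial respiratory chain that are encoded in the nucleus were followed in satellite cells, the resident stem cells of adult muscle, by RNA-sequencing of freshly isolated cells. Members were chosen by name alone. They are the 88 protein-coding genes, of 54115 genes with matched transcripts, whose symbol begins with Nduf and a subunit letter and number, is Ndufab1, an Sdh gene, Cyc1 or Cycs, or begins with Uqcr, with Cox4i, Cox5, Cox6, Cox7 or Cox8, or with Atp5. By symbol, 38 fell into complex I, 4 into complex II, 10 into complex III with cytochrome c, 18 into complex IV and 18 into the ATP synthase. A further 12 symbols of the same pattern were pseudogenes or carried the ending -ps and were left out. Of the 88 members, 85 passed a filter of 5 or more reads in 2 or more libraries and were tested among 17152 genes. Cox7b2 and Cox8c, testis forms of complex IV subunits, had 0 reads in every library, and a second gene entry named Atp5o, which shares 94.0% of its 31-base words with other genes, also failed the filter.

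Cells were sorted from uninjured hindlimb muscles of C57BL/6J mice as α7-INTEGRIN+ and CD34+ and negative for CD31, CD11b, SCA-1 and CD45. The 3 Pax7WT libraries carry the normal allele of Pax7, the transcription factor that marks satellite cells, and the 3 Pax7KR libraries come from mice homozygous for a CRISPR/Cas9 knock-in that puts an arginine in place of an acetylated lysine of PAX7. The study reports another acetylated lysine of PAX7, which the knock-in does not change. Per the study's methods the Pax7KR mice descend from founders crossed to wild-type mice, the Pax7WT mice are littermates of the homozygotes, and the mice were 6 to 8 weeks old. Neither group received a treatment, and the replaced residue is present in every cell that expresses Pax7 and not only in adult satellite cells. The labels number the libraries within each genotype and do not say how many mice went into each, so p-values measure the spread between these libraries only.

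The respiratory chain passes electrons from NADH through complex I, or from succinate through complex II, to complex III, cytochrome c, complex IV and oxygen, and the ATP synthase uses the proton gradient that results. Complexes I, III and IV and the ATP synthase are built from subunits of both the nuclear and the mitochondrial genome, whereas complex II is wholly nuclear. Quiescent satellite cells are known for few mitochondria and low respiration, which increase on activation. Several subunits of complex IV exist as a common form and a form of heart and mature muscle.

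Depth ran from 17822367 to 27908054 estimated reads per library. The 12 satellite cell markers were all detected, with Pax7 between 1410 and 1666 CPM (reads relative to library size, with library sizes scaled by the trimmed mean of M-values), and the 15 myofibre markers summed to between 126 and 155 CPM. Summed levels of the 8 immune markers ran from 12.4 to 16.8 CPM, with the T cell marker Cd3e at 0 reads. The 7 fibro-adipogenic markers summed to between 1929 and 2078 CPM and the 8 endothelial markers to between 260 and 364 CPM. The fibro-adipogenic sum was uneven among its genes, with a mean sum of 1305 and a median of 18.4 in TPM (explained below). The 6 smooth muscle and pericyte markers summed to between 216 and 310 CPM and the 5 Schwann markers to between 58.1 and 102 CPM. The 5 erythroid markers summed to 190, 211 and 376 CPM in Pax7WT and to 352, 329 and 556 CPM in Pax7KR, and 4 genes of the Y chromosome (Ddx3y, Eif2s3y, Uty and Kdm5d) summed to 131 CPM in Pax7KR replicate 2 against 299 to 355 CPM in the other 5 libraries. The part of these differences in the results was not tested. Values without a library are given for the 8 members with the smallest p in each direction. They are given where leaving it out moved the log2 fold change by over 1.5 times. In sorted cells as in any bulk sample, fewer cells of a type and less RNA per cell cannot be told apart.

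The first question was how strongly the subunits of each complex were expressed in these cells. Levels of different genes were compared as TPM, a level relative to all transcripts of the library that accounts for transcript length. Among the 85 tested members, 53 had a mean above 100 TPM over the 6 libraries, 24 lay between 20 and 100 TPM and 8 lay at or below 20 TPM. All members together took 0.524% of the reads. The summed level was 4044 TPM for complex I, 404 TPM for complex II, 1360 TPM for complex III with cytochrome c, 2919 TPM for complex IV and 3565 TPM for the ATP synthase. The median member had 118 TPM, against 11.9 TPM for all genes tested.

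**Figure D1:**
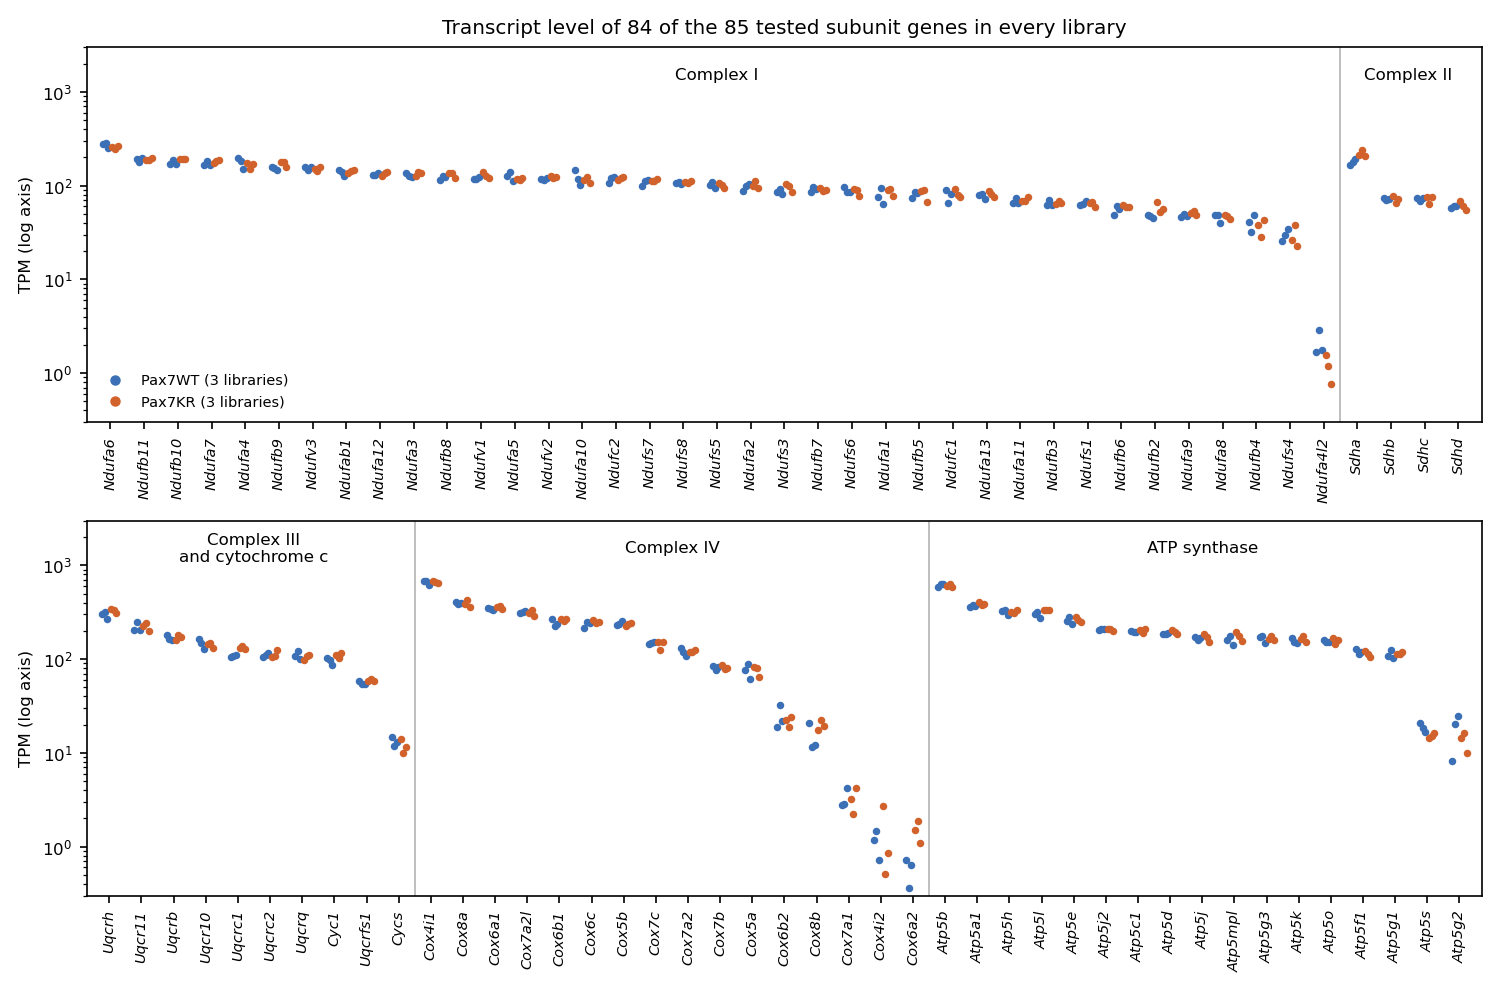
TPM on a log axis for 84 of the 85 tested subunit genes, ordered by mean level within each complex, with 1 point per library (blue Pax7WT, orange Pax7KR, 3 libraries each). Most genes lie near or above 100 TPM with the colours intermingled, and the lowest points belong to Ndufa4l2, Cox7a1, Cox4i2 and Cox6a2.

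Within complex I the levels ran from Ndufa6 to Ndufa4l2. Ndufa6, an accessory subunit of the LYR family, had 274, 282 and 253 TPM in Pax7WT and 258, 248 and 266 TPM in Pax7KR. Ndufa4l2, a hypoxia-inducible relative of Ndufa4, had 1.68, 2.90 and 1.77 TPM in Pax7WT and 1.56, 1.18 and 0.764 TPM in Pax7KR. Thus the 3 Pax7KR values of Ndufa4l2 were below all 3 Pax7WT values, whereas those of Ndufa6 overlapped them. Ndufs4, an accessory subunit, was the lowest of complex I after Ndufa4l2, at 29.5 ± 5.83 TPM (SD, n = 6).

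In complex II, Sdha, the flavoprotein that oxidises succinate, stood above its partners. Sdha had 164, 180 and 192 TPM in Pax7WT and 214, 238 and 207 TPM in Pax7KR. Sdhb, the iron-sulphur subunit, had 72.1 ± 4.31 TPM (SD, n = 6), Sdhc, a membrane anchor, had 72.1 ± 4.67 TPM, and Sdhd, the other anchor, had 60.5 ± 4.24 TPM. The 3 smaller subunits therefore lay close together, and Sdha lay above them in every library. In CPM of the same gene, Sdha showed no such split between the genotypes, as described below.

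In complex III, Uqcrh, the hinge protein next to cytochrome c1, was highest, with 304, 319 and 269 TPM in Pax7WT and 346, 333 and 312 TPM in Pax7KR. Cyc1, cytochrome c1 itself, had 103, 97.4 and 86.2 TPM in Pax7WT and 110, 104 and 115 TPM in Pax7KR. Cycs, the mobile electron carrier cytochrome c, was the lowest of the group, with 14.7, 11.8 and 12.9 TPM in Pax7WT and 14.1, 9.86 and 11.7 TPM in Pax7KR. The genotypes overlapped for Uqcrh and Cycs and just parted for Cyc1, for which they overlapped in CPM.

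In complex IV, Cox4i1, the common form of subunit 4, had the highest mean of all members. Its values were 674, 682 and 623 TPM in Pax7WT and 674, 664 and 642 TPM in Pax7KR. At the other end, Cox6a2, the form of subunit 6A in heart and mature muscle, had 0.72, 0.367 and 0.643 TPM in Pax7WT and 1.5, 1.87 and 1.1 TPM in Pax7KR. These values rest on 2 to 13 reads per library. For the ATP synthase, Atp5b, the catalytic beta subunit, had 590, 634 and 637 TPM in Pax7WT and 605, 633 and 585 TPM in Pax7KR, and Atp5g2, 1 of 3 genes for the membrane subunit c, had 8.22, 20.3 and 24.5 TPM in Pax7WT and 14.4, 16.4 and 9.88 TPM in Pax7KR. Among the 17 tested ATP synthase members, Atp5g2 was also the one whose libraries were the most scattered relative to its level.

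The second question was whether replacement of an acetylated lysine of PAX7 altered the transcript levels of these genes. No member was called: 0 of 85 passed an adjusted p of 0.1 in edgeR's quasi-likelihood test with Benjamini-Hochberg adjustment over all genes tested, where 0% of all genes were called. At an unadjusted p under 0.05 there were also 0 of 85 members, against 4.68% of all genes (803 of 17152), and DESeq2 likewise gave 0 members under either criterion while calling 30 genes overall. The smallest unadjusted p of any member was 0.0885, for Cox7a2l, with an adjusted p of 0.992. Without Pax7WT replicate 1, Pax7WT replicate 3 or any 1 of the Pax7KR libraries, 1 member passed the unadjusted threshold each time. It was a different gene each time (Atp5g2, Ndufa4, Cycs, Cox7a2l and Ndufa6). The share of all genes under this threshold in those fits is not given here, so these counts cannot be set beside it.

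**Figure D2:**
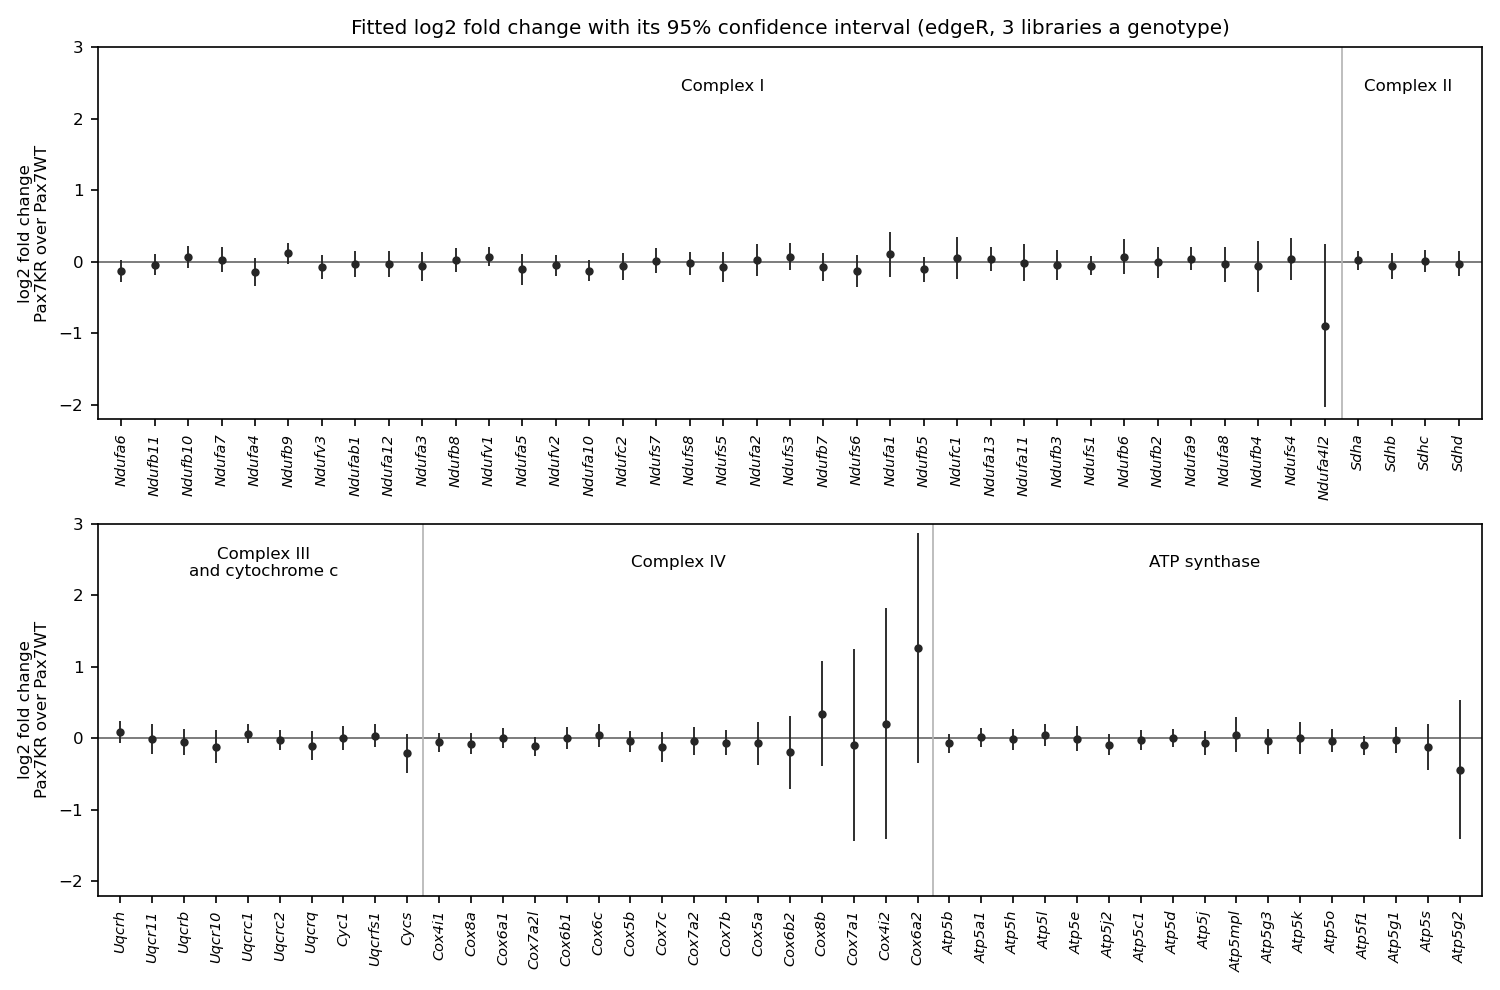
Fitted log2 fold change of Pax7KR over Pax7WT (y axis) for 84 of the 85 tested members with 95% confidence intervals from edgeR. Every interval spans 0, and the wide ones belong to members with few reads, such as Cox6a2, Cox4i2, Cox7a1 and Ndufa4l2.

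The log2 fold changes were small and were known closely for most members. The median over the 85 members was -0.03, against -0.00 over all genes, and 53 members (62.4%) had a value below 0, against 51.0% of all genes. With library totals in place of the scaled library sizes the median of the members was 0.00 and that of all genes 0.03, so the difference between members and all genes was -0.03 on both scales. For 78 of the 85 members the 95% confidence interval lay within 0.5 of 0 on the log2 scale, and for 64 it lay within 0.3. The median per complex was -0.03 for complex I, -0.01 for complex II, -0.02 for complex III with cytochrome c, -0.05 for complex IV and -0.03 for the ATP synthase.

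Values by library showed the same. Each library's median deviation from the mean of the 6 libraries, in log2(CPM + 1) over the 85 members, was 0.00, 0.05 and -0.02 in Pax7WT and -0.01, -0.02 and 0.00 in Pax7KR. Pax7WT replicate 2 stood highest, with 64 of 85 members above their mean, and without it the median log2 fold change of the members was -0.00. Summed over all members, the level was 5285 ± 135 CPM in Pax7WT and 5189 ± 35.6 CPM in Pax7KR (SD, n = 3 each). The sum over complex IV was 907, 917 and 892 CPM in Pax7WT and 867, 878 and 869 CPM in Pax7KR. These groups lay apart by 13.9 CPM and by 14.5 and 13.3 CPM with RLE and upper-quartile factors, but with library totals in place of the scaled library sizes the sums were 890, 917 and 881 CPM in Pax7WT and 888, 886 and 868 CPM in Pax7KR and overlapped, as they did in TPM. The CPM sums of the other complexes overlapped under every scaling run, whereas in TPM the sum over complex II was 370, 379 and 399 in Pax7WT and 435, 428 and 411 in Pax7KR, without overlap, and Sdha made up the largest part of that sum in every library. The members also varied little among libraries of a genotype. The median within-genotype SD of log2(CPM + 1) was 0.0869 for the members, against 0.107 for the 6828 genes between the 10th and 90th percentile of the members' mean CPM.

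Among members with the smallest p on the lower side was Cox7a2l, grouped by symbol with complex IV. It had 180, 184 and 188 CPM in Pax7WT and 166, 182 and 163 CPM in Pax7KR. Its log2 fold change was -0.11 ± 0.06 (SE), and 1 of the 3 Pax7KR libraries lay within the Pax7WT range. Ndufa6 had a log2 fold change of -0.13 ± 0.07 (unadjusted p = 0.0904) and Ndufa10, an accessory subunit of complex I, one of -0.12 ± 0.07 (unadjusted p = 0.0963). Both overlapped between the genotypes. Cycs had 23.3, 20.7 and 22.7 CPM in Pax7WT and 21.9, 15.8 and 20.001 CPM in Pax7KR, a log2 fold change of -0.21 with a 95% confidence interval of -0.48 to 0.06. The low value was that of Pax7KR replicate 2, and without this library the log2 fold change of Cycs was -0.09. Ndufa4l2 had the lowest log2 fold change of any member, -0.89 ± 0.53 (95% confidence interval -2.03 to 0.24), on the low levels given above. Ndufa4, which copurifies with complex IV despite its symbol, had a log2 fold change of -0.14 ± 0.09 (unadjusted p = 0.15) with overlapping values, which was -0.0806 without Pax7KR replicate 2 and -0.22 without Pax7WT replicate 3.

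Among those with the smallest p on the higher side, Cox6a2 led with a log2 fold change of 1.26 ± 0.75 (95% confidence interval -0.35 to 2.87) on the few reads given above. Ndufb9, an accessory subunit of complex I, had 51.9, 51.1 and 48.8 CPM in Pax7WT and 56.2, 56.5 and 51.9 CPM in Pax7KR, a log2 fold change of 0.12 ± 0.07 (unadjusted p = 0.122). The lowest Pax7KR library of Ndufb9 lay just below the highest Pax7WT library. Uqcrh, Ndufv1, Uqcrc1, Ndufb10 and Ndufs3 followed with log2 fold changes of 0.06 to 0.09, and Cox8b, the muscle form of subunit 8, with 0.35 ± 0.34 (unadjusted p = 0.327). Apart from Cox6a2, these genes overlapped between the genotypes in CPM. Without Pax7WT replicate 3 the values were 0.0195 for Uqcrh, 0.0164 for Ndufb10 and 0.00119 for Ndufs3, and without Pax7WT replicate 2 they were 0.14, 0.12 and 0.13. Without Pax7KR replicate 1 they were 0.0318 for Ndufv1, 0.0328 for Ndufs3 and 0.0438 for Uqcrc1, and without Pax7KR replicate 3 Ndufs3 was at 0.11. Without Pax7WT replicate 1 Uqcrc1 was at 0.0394, and Cox8b was at 0.70, 0.19 and 0.21 without Pax7WT replicates 1, 2 and 3 in turn.

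Without any test, 5 of 85 members (5.88%) had CPM values that did not overlap between the genotypes, against 10.3% of all genes tested. Lower in Pax7KR were 4 members, Ndufa4l2, Ndufa3, Atp5f1 and Atp5j2, where 5.19% of all genes did the same, and higher was 1, Cox6a2, where 5.14% did. Atp5f1, subunit b of the peripheral stalk, had 96.9, 91.7 and 92.0 CPM in Pax7WT and 90.7, 85.4 and 86.2 CPM in Pax7KR, a log2 fold change of -0.10 ± 0.06 (unadjusted p = 0.134). Atp5j2, subunit f, had 53.6, 56.2 and 55.1 CPM in Pax7WT and 51.8, 51.9 and 51.4 CPM in Pax7KR, a log2 fold change of -0.09 ± 0.07 (unadjusted p = 0.2). For both genes the gap between the groups was about 1 to 2 CPM, and the share of members with separate groups was not above that of all genes.

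**Figure D3:**
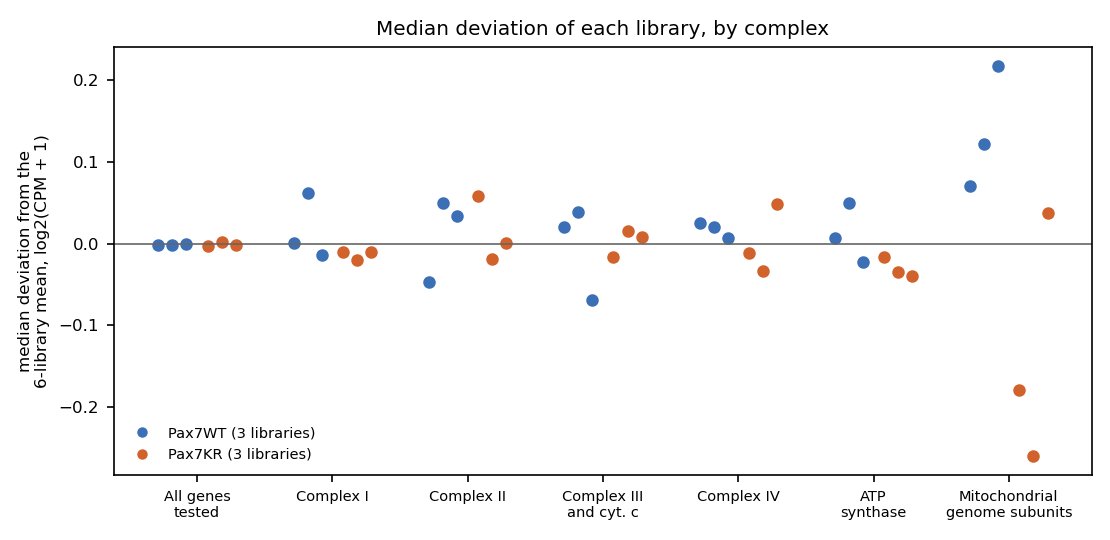
Median deviation of each library from the mean of the 6 libraries (log2(CPM + 1), y axis) for all genes tested, for the tested members of each complex and for the 13 subunits of the mitochondrial genome, with 1 point per library. The nuclear groups stay within 0.07 of 0, whereas the mitochondrial genome subunits reach 0.22 in Pax7WT and -0.26 in Pax7KR.

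The partner subunits encoded in the mitochondrial genome differed from the nuclear ones in their values. All 13 had a log2 fold change below 0 with a median of -0.35, and 8 of the 13 had an unadjusted p under 0.05 on the lower side, against 2.43% of all genes. Whether the 13 vary independently was not tested, so these are not counts of separate results. Lower in Pax7KR without overlap were 6 in CPM, against 5.19% of all genes, and 3 in TPM, against 2.78%. The 13 had median deviations of 0.07, 0.12 and 0.22 in Pax7WT and -0.18, -0.26 and 0.04 in Pax7KR libraries. None of the 13 was called in the edgeR fit of the filtered genes, where mt-Nd6, a complex I subunit, had the smallest adjusted p (log2 fold change -0.58 ± 0.12, adjusted p = 0.445), followed by mt-Atp6, subunit a of the ATP synthase (-0.40 ± 0.10, adjusted p = 0.959). Both were called with DESeq2 (adjusted p = 0.05003 for each), where 0.175% of all genes were called, and by edgeR without the filter on low reads (adjusted p = 0.00267 for mt-Nd6 and 1.77e-05 for mt-Atp6), where 0.652% were. The nuclear members had no call in either fit. The ratio of summed CPM of the 13 mitochondrial subunits to that of the nuclear members was 9.67, 9.77 and 10.97 in Pax7WT and 8.34, 7.89 and 9.66 in Pax7KR. The highest Pax7KR library thus lay next to the lowest Pax7WT library, and no test was made of this ratio.

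For the subunits that exist in several forms, the share of each form was compared between the genotypes as a percent of the summed TPM of its group. Common forms prevailed. Cox4i1 made up 99.8% of the subunit 4 transcripts, Cox6a1 99.7% of subunit 6A, Cox6b1 91.6% of subunit 6B and Cox8a 95.8% of subunit 8 over the 6 libraries. The forms of heart and mature muscle were a small part of their groups, with Cox6a2 at 0.293% and Cox8b at 4.21%. Cox7a1 was at 0.748%, with Cox7a2l counted in its group. Cox4i2, the lung form, held 0.186% and Cox6b2, the testis form, 8.4%.

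Cox7a2l held 71.8% of the subunit 7A group and Cox7a2, the common form, 27.4%. Cox7a2l was grouped by symbol and is listed as a protein of supercomplexes (joined complexes), not as a common or muscle form. Counting it lowers the shares of Cox7a2 and Cox7a1, which had means of 120 and 3.26 TPM over the 6 libraries. Of the 3 genes for subunit c, which encode the same mature protein with different presequences, Atp5g3 held 56.3%, Atp5g1 38.4% and Atp5g2 5.29%. Ndufa4 held 99.1% and Ndufa4l2 0.946% of their pair. The X-linked Cox7b accounted for the whole of subunit 7B, since Cox7b2 had no reads. Of the subunit 5 genes, which are distinct subunits rather than alternative forms, Cox5b had 238 ± 9.42 TPM and Cox5a 75.3 ± 10.9 TPM (SD, n = 6).

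**Figure D4:**
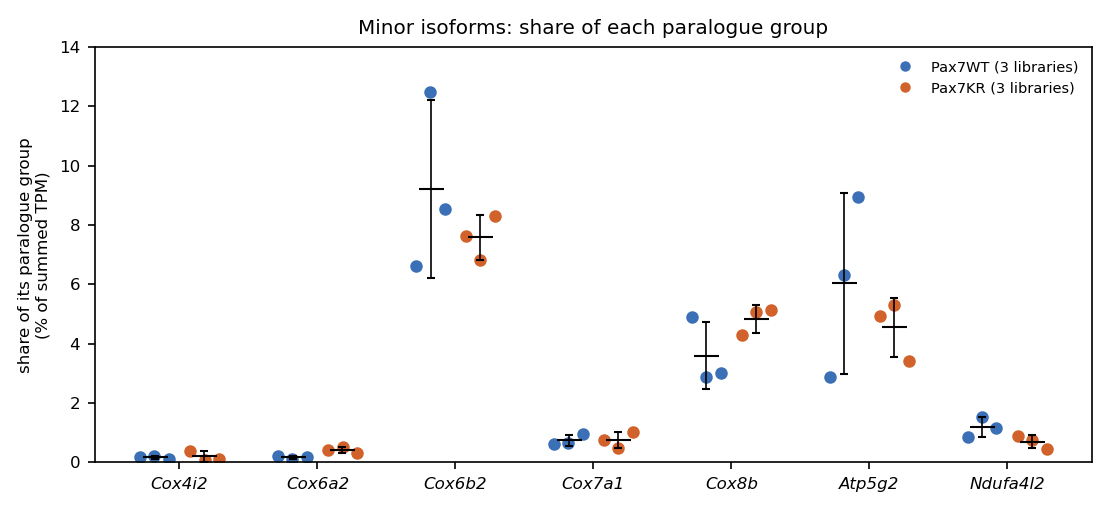
Share of the minor forms in their paralogue groups (percent of the summed TPM, y axis) in each library, with bars for the mean and SD of the 3 libraries of a genotype. Cox6a2 is the form whose groups part without overlap, at shares below 1%, and Cox6b2 and Atp5g2 scatter the most among Pax7WT libraries.

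No share could pass a threshold of 0.05 in this design. With 21 shares in 9 groups compared by an exact two-sided permutation test, for which the smallest possible p is 0.1, the smallest p was 0.1, for Cox6a2 and its mirror image Cox6a1, with an adjusted p of 0.7. The share of Cox6a2 was 0.206%, 0.108% and 0.192% in Pax7WT and 0.42%, 0.509% and 0.321% in Pax7KR, so that all 3 Pax7KR libraries were higher. Cox8b had shares of 4.9%, 2.89% and 3.01% in Pax7WT and of 4.29%, 5.06% and 5.13% in Pax7KR (exact permutation p = 0.2). One Pax7WT library of Cox8b lay among the Pax7KR values. The share of Cox7a1, the third muscle form, was 0.745 ± 0.188% in Pax7WT and 0.751 ± 0.261% in Pax7KR (SD, n = 3 each). Beside these, the summed level of the 15 myofibre markers was 145 ± 11.3 CPM in Pax7WT and 135 ± 7.64 CPM in Pax7KR.

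The scale mattered for some members. In TPM, 13 of 85 members did not overlap between the genotypes, against 12.5% of all genes, and 11 of them were higher in Pax7KR, where 9.69% of all genes were higher without overlap, and 2 lower, where 2.78% were. Only 2 of these 13, Ndufa4l2 and Cox6a2, did not overlap in CPM either. TPM differs from CPM in that each gene's reads are divided by the effective length of the transcripts they were assigned to. It is also scaled to all transcripts of the library, without the trimmed mean of M-values. The part of each difference in the counts above was not tested. The members whose log2 ratio of mean TPM most exceeded their log2 fold change in counts were Ndufb2, Sdha and Uqcrc1. Ndufb2, an accessory subunit of complex I, had 48.7, 47.5 and 44.9 TPM in Pax7WT and 66.4, 51.7 and 55.8 TPM in Pax7KR, with a log2 fold change in counts of -0.01 ± 0.10 without and 0.24 ± 0.12 with the average transcript length of each library as an offset (edgeR, unadjusted p = 0.0741).

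Sdha (chr13:74322254-74350280, GRCm38, minus strand) had 260, 292 and 287 CPM in Pax7WT and 291, 279 and 279 CPM in Pax7KR, with a log2 fold change of 0.02 ± 0.06 (95% confidence interval -0.12 to 0.15). With the length offset, the log2 fold change was 0.23 ± 0.08 in edgeR (unadjusted p = 0.0148, adjusted p = 0.961). The reads of Sdha were divided differently among its transcripts. A short processed transcript, ENSMUST00000160667, was given 0 reads in each Pax7WT library and 119, 158 and 21 reads in Pax7KR. The full-length transcript, ENSMUST00000022062, held 6908, 5087 and 5625 reads in Pax7WT and 6399, 6334 and 5569 reads in Pax7KR. Other transcripts also varied between libraries. ENSMUST00000160900 had 6, 4 and 0 reads in Pax7WT and 2, 30 and 11 in Pax7KR. ENSMUST00000221594 had 151 reads in Pax7WT replicate 3, 149 in Pax7KR replicate 3 and 0 in the rest.

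Uqcrc1, a core protein of complex III (chr9:108936633-108949623, GRCm38, plus strand), was similar. It had 83.2, 89.6 and 86.2 CPM in Pax7WT and 93.0, 89.1 and 88.9 CPM in Pax7KR, but 106, 109 and 111 TPM in Pax7WT and 132, 138 and 127 TPM in Pax7KR. Its short coding transcript ENSMUST00000194047 held 64, 45 and 80 reads in Pax7WT and 128, 237 and 162 reads in Pax7KR. The log2 fold change was 0.07 ± 0.06 without and 0.22 ± 0.07 with the length offset (unadjusted p = 0.0103, adjusted p = 0.961). Sdha and Uqcrc1 were the 2 members under an unadjusted p of 0.05 with the offset, and neither was called. The share of all genes under that threshold with the offset is not given here. Assignment of reads among transcripts of a gene is an estimate, and its error is not part of these values.

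**Figure D5:**
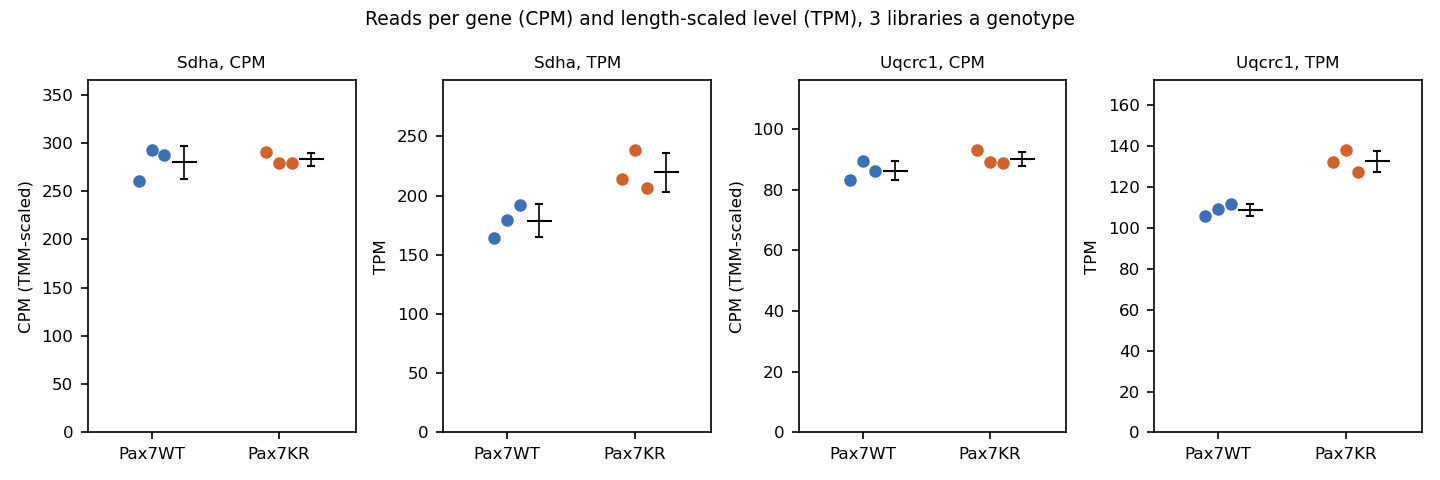
Sdha and Uqcrc1 in CPM and in TPM (y axes from 0) in the 3 libraries of each genotype, with bars for the mean and SD. In CPM the groups overlap for both genes, and in TPM all 3 Pax7KR libraries lie above the Pax7WT libraries for both genes.

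Some members share sequence with copies elsewhere in the genome, so their reads are uncertain. More than 10% of the 31-base words of 24 members occur in other genes. Atp5g2 shares 40.2%, largely with Gm10175, a transcribed processed pseudogene at chr7:23946646-23947290 (GRCm38, minus strand), which held 1628 to 2590 reads per library against 67 to 169 for Atp5g2. Cycs shares 29.2% with other genes, foremost Gm10053, which held 215 to 334 reads against 367 to 634 for Cycs, and Ndufb4 shares 19.1% with Ndufb4c, which held 328 to 605 reads against 164 to 321 for Ndufb4. In all 3 pairs the copy took a sizeable part of the reads.

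With the reads of each pair added together, a choice made after seeing the data, the standard errors were smaller. Gm10175 and Ndufb4c held most of the reads of their pairs, so these sums say little about Atp5g2 or Ndufb4 themselves. Alone, the log2 fold change was -0.04 ± 0.07 for Gm10175 and 0.03 ± 0.11 for Ndufb4c. For the sums, the log2 fold change was -0.06 ± 0.06 for Atp5g2 with Gm10175, against -0.44 ± 0.42 for Atp5g2 alone. It was -0.10 ± 0.10 for Cycs with Gm10053, against -0.21 ± 0.12 for Cycs alone, and -0.00 ± 0.09 for Ndufb4 with Ndufb4c, against -0.06 ± 0.17 for Ndufb4 alone. None was called. The low level of Atp5g2 within its complex, and in part that of Cycs, also rests on how reads were divided with these copies. Gm10053 held fewer reads than Cycs in every library. Uqcrfs1, next above Cycs in its group, had 57.7 TPM, against 12.5 TPM for Cycs.

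The 3 members on the X chromosome overlapped between the genotypes. Ndufa1, needed for complex I assembly, had 11.8, 14.4 and 9.75 CPM in Pax7WT and 13.2, 13.4 and 11.8 CPM in Pax7KR. Ndufb11, another complex I subunit, had a log2 fold change of -0.04 ± 0.07, and Cox7b, a complex IV subunit, one of -0.06 ± 0.08. Pax7KR replicate 2, with its lower Y-linked level, held the lowest value of Cox7b and neither extreme of Ndufa1 or Ndufb11. Xist, the RNA of the inactive X chromosome, had 0.880 CPM in that library and 0.437 to 2.29 CPM in the others. The cause of the lower Y-linked level was not tested.

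The genes that build and control the chain were examined next. Among 56 assembly factors, all of which passed the filter, 30 had a log2 fold change above 0 and 26 below 0, with a median of 0.01, and none was called. Acad9, a complex I assembly factor, was the 1 of 56 (1.79%) with an unadjusted p under 0.05, against 4.68% of all genes. It had 45.6, 49.8 and 47.3 CPM in Pax7WT and 41.2, 41.2 and 41.8 CPM in Pax7KR, a log2 fold change of -0.20 ± 0.07 (unadjusted p = 0.016, adjusted p = 0.992) with all Pax7KR libraries lower. With the length offset, which fits the average transcript length of each library, it was -0.0529 in edgeR. Sdhaf3, which assists the iron-sulphur subunit of complex II, had a log2 fold change of 0.38 ± 0.19 (unadjusted p = 0.0667).

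Of 19 regulators of mitochondrial biogenesis, 18 were tested, 7 had a log2 fold change above 0 and 11 below 0, and none was called. Polrmt, the mitochondrial RNA polymerase, had 29.4, 32.9 and 29.8 CPM in Pax7WT and 36.3, 37.0 and 32.3 CPM in Pax7KR, a log2 fold change of 0.20 ± 0.09 (unadjusted p = 0.044, adjusted p = 0.992) with 1 library of overlap. This direction reversed with the length offset, to -0.0866 in edgeR. Tfam, which packages mitochondrial DNA and starts its transcription, had 36.2, 35.7 and 37.0 CPM in Pax7WT and 33.0, 29.9 and 34.2 CPM in Pax7KR, a log2 fold change of -0.17 ± 0.08 (unadjusted p = 0.0658, adjusted p = 0.992), and its groups did not overlap.

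Among transcription factors of nuclear subunit genes, Nrf1 had a log2 fold change of 0.08 ± 0.08, Gabpa, the DNA-binding part of GABP, -0.03 ± 0.06, and Esrrg, an oestrogen-related receptor, -0.31 ± 0.14 (unadjusted p = 0.0546), which became -0.0387 with the length offset and -0.47 without Pax7KR replicate 1. Esrra, the alpha form of that receptor, had 4.26, 16.1 and 15.4 CPM in Pax7WT and 16.8, 9.63 and 18.2 CPM in Pax7KR, a spread too wide to place a difference. Ppargc1a, the coactivator PGC-1α, had 13.0, 12.7 and 11.9 CPM in Pax7WT and 13.3, 10.7 and 13.5 CPM in Pax7KR, with a log2 fold change of -0.00 ± 0.13. Its transcript was thus present in all libraries.

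The promoters of the members shared letters that the selection by name did not use. Promoters run from 250 bases before to 50 after the RefSeq start (GRCm38.p6), and 68 of 87 member symbols had an entry. The letters searched on both strands were GCGCANGCG for NRF1, CCGGAAG for GABP and other ETS factors, AAGATGGCG for YY1, TCAAGGTCA for oestrogen-related receptors, GGGCGG for SP1, CCAAT for NFY and TATAAA for the TATA box. Counting both strands, a YY1 match can share up to 3 bases with an NRF1 or ETS match, an ETS or NFY match up to 2 with an SP1 match, a YY1 match up to 2 with a TATA match, and any other pair at most 1. The NRF1 letters occurred in 21 of 68 members (30.9%), against 14.05% of the 11533 tested genes with an entry and 6.25% of all 32851 promoters. The windows below show the match, in capitals, in 5 members that include the flavoprotein and an anchor of complex II and the mobile carrier, all written 5′ to 3′ on the strand of the gene.
Cycs, chr6:50566611-50566640, minus strand: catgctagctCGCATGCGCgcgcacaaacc
Sdha, chr13:74350319-74350348, minus strand: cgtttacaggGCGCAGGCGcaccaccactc
Sdhd, chr9:50603909-50603938, minus strand: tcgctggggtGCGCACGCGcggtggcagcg
Uqcr11, chr10:80406807-80406836, minus strand: atcgccttcaCGCATGCGCtatacgtctgc
Cox6a1, chr5:115349101-115349130, minus strand: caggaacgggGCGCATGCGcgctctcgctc

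In Cycs the match began 61 bases before the start, in Sdha 98 bases, in Sdhd 79 bases, in Uqcr11 5 bases and in Cox6a1 162 bases. The ETS letters occurred in 16 of 68 members (23.5%), against 18.5% of tested genes and 8.86% of all promoters. The YY1 letters occurred in 7 (10.3%), against 3.22% of tested genes and 1.4% of all promoters. Counted per promoter, the member shares were 30.1% for NRF1, 21.9% for ETS and 9.59% for YY1 letters. The YY1 match began 88 bases before the start in Atp5j and 22 to 35 bases after it in the others, within the transcribed part. Both the NRF1 and the ETS letters were held by 6 members (Sdhd, Uqcr11, Cox6a1, Atp5h, Atp5k and Atp5l), and Ndufs6, a complex I subunit, held the NRF1 and the YY1 letters. The next windows show the ETS letters in 2 of these members and the YY1 letters in Ndufs6.
Sdhd, chr9:50603877-50603906, minus strand: ccgtctcctgcCTTCCGGttcacgcttcag
Uqcr11, chr10:80406869-80406898, minus strand: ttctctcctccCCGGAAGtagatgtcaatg
Ndufs6, chr13:73328433-73328462, minus strand: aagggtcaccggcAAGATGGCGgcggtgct

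At least 1 of these 3 motifs occurred in 36 of 68 members (52.9%), against 31.3% of tested genes. Members and tested genes differed in the other letters as follows. SP1 letters occurred in 41.2% of members, against 66.4% of tested genes and 35.7% of all promoters, and NFY letters in 44.1%, against 42.8% of tested genes and 37.4% of all promoters. The TATA letters occurred in 10.3% of members, against 9.25% of tested genes and 13.6% of all promoters, and the letters of oestrogen-related receptors in 2 members, Atp5g3 and Sdhd, against 0.338% of tested genes and 0.423% of all promoters. These are matches of letters, and binding was not measured here.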

How the data were processed

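RNA-sequencing of 3 Pax7WT and 3 Pax7KR satellite cell samples was analysed, each library prepared from 15 ng of RNA with a strand-specific kit. The authors quantified reads with salmon (version 1.3.0, per the submitters' processing notes) against GENCODE transcripts, using the GRCm38 genome as decoy sequence, and deposited 1 estimated count for each transcript, not normalized. The authors also deposited TPM per transcript, scaled for effective length and depth. Their table of the genotype comparison (tximport and DESeq2, version 1.28.1), with fold changes and p-values, was not used.

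Members and lists were chosen with earlier results of these data known. Estimated counts were summed per gene over 139791 of 140992 transcripts found in the available GRCm38 annotation, an older GENCODE release, and rounded. Unmatched transcripts held 0.592% to 0.634% of each library's reads. The filter kept genes that reached 5 reads in at least 2 libraries, and edgeR served as the test (version 4.0.16; TMM, robust quasi-likelihood test, genotype alone), with Benjamini-Hochberg adjustment over 17152 genes and a cut-off of 0.1. TPM was summed per gene. Alternatives used DESeq2 (version 1.42.0) and limma (version 3.58.1) in R (version 4.3.3). Shares, promoter motifs and shared 31-base words were computed in Python (version 3.11.15), permutation tests with scipy (version 1.17.1) and plots with matplotlib (version 3.10.9). Libraries of a genotype differed beyond counting noise (chi-square per gene 9.73 to 21.9), so none was another library sequenced again. This cannot tell whether they came from different mice or RNA samples. The fit was tested on simulated data.

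Genes named in the text are, in each complex, the highest and lowest by TPM, the 8 with the smallest p in each direction, genes of paralogue groups, the Sdh genes, Cycs, Cyc1, X-linked members, those failing the filter, and from each list the 2 with the smallest p with 5 regulators. Other genes were named after their values were seen. The values of 1 member are not reported here, and it counts only in totals over members.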

Additional observations from a re-analysis of the deposited data

How the results depend on the processing

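No member was called under any alternative run: DESeq2, a transcript length offset in DESeq2 or edgeR, limma-voom, RLE or upper-quartile factors, library totals only, a stricter filter of 10 reads in every library, no filter at all, no robust shrinkage, reads not rounded, a replicate block, an adjusted p of 0.05, or leaving out each library (4 members had no adjusted p in DESeq2 with the offset). The number with an unadjusted p under 0.05 was 2 with the length offset in either tool, where transcript lengths differ between libraries. It was 0 to 1 on leaving out 1 library. For neither is the share of all genes under that threshold given here. The median log2 fold change of the members was 0.00067 with library totals only, and -0.04 to -0.00 on leaving out 1 library. Members without overlap numbered 9 to 16 with 1 library left out, where fewer values must part and 17.8% to 22.7% of all genes did not overlap, and 5 to 7 under other scalings, with 10.4% to 11.1% of all genes.

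Of 26 genes whose log2 fold change was recomputed 468 times, 457 kept direction and call, 6 reversed and 5 gained a call. Those 5 were mt-Nd6 and mt-Atp6 in DESeq2 and without the filter, and Emcn without the filter (adjusted p = 0.0613). Polrmt reversed with the length offset, to -0.0883 in DESeq2 and -0.0866 in edgeR. On leaving out 1 library, Sdha ranged from -0.0332 to 0.0496 and Ndufb4 from -0.20 to 0.054. Among other named members, Atp5g2 then ranged from -0.81 to -0.11 and Ndufb2 from -0.087 to 0.058. Cox7b ranged from -0.11 to -0.0037 and Ndufb11 from -0.078 to -0.014. Shares by CPM gave a difference of 0.329 percentage points for Cox6a2 and -0.796 for Ndufa4l2, against 0.248 and -0.486 by TPM; the cause was not tested.

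Same-numbered libraries did not deviate together (correlations of 0.00, 0.04 and -0.06) more than differently numbered ones (-0.08 to 0.08). This check cannot exclude that same-numbered samples were handled together, and the labels do not say. With the replicate block 0 members were called, 0 had an unadjusted p under 0.05, the median of the members was -0.03 and 13 genes were called overall. With 3 libraries a genotype, 7 members, at up to 23.0 TPM, have intervals wider than 1 on the log2 scale.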

Other observations

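Subunits and partners of the ATP synthase that carry other symbols were looked up after the members were seen. Usmg5, a small membrane subunit of the ATP synthase, had 219, 195 and 175 TPM in Pax7WT and 195, 201 and 235 TPM in Pax7KR, with a log2 fold change in counts of 0.02 ± 0.12. Atpif1, the inhibitor that binds the ATP synthase when the proton gradient fails, had 46.5, 46.5 and 49.9 CPM in Pax7WT and 45.0, 41.9 and 41.0 CPM in Pax7KR. Its groups did not overlap, and its log2 fold change was -0.16 ± 0.07 (edgeR, unadjusted p = 0.0533, adjusted p = 0.992).

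Ndufb1-ps, annotated as a non-coding RNA from a shared promoter and left out for its symbol, held 170 to 226 reads per library, with a log2 fold change of 0.07 ± 0.17.

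Of 7 tested immune markers, 4 had a log2 fold change above 0 and 3 below, with a median of 0.0276. Among them, Cd79a, a B cell receptor component, had a log2 fold change of -0.58 ± 0.20 (edgeR, unadjusted p = 0.0134, adjusted p = 0.992). Of 8 endothelial markers, 7 were above 0, with a median of 0.33. Emcn, an endothelial sialomucin, had 0.88 ± 0.43 (unadjusted p = 0.0801, adjusted p = 0.992), a call without the filter on low reads and 0.60 to 1.2503 on leaving out 1 library.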
